A study of Mus musculus with 4 samples.

Results

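Head-to-head promoters are stretches of DNA between the transcription start sites (TSSs) of a pair of genes that lie on opposite strands and run away from each other. Every such pair of protein-coding genes in the GENCODE vM21 annotation of the mouse genome (GRCm38) was taken on chromosomes 1 to 19, where the minus-strand TSS lay 0 to 1000 bp to the left of the plus-strand TSS. This gave 735 pairs, made of 1450 of the 20807 coding genes (6.97%). The region of a pair was the gap between its TSSs plus 500 bp into each gene. No measured value entered this choice. The peaks of 4 libraries were then read in these regions. Chromatin accessibility by ATACseq and the histone variant H2A.Z by ChIPseq were each profiled in 1 WT liver (Uhrf1 fl/fl) and in 1 Uhrf1hepKO liver (Uhrf1 fl/fl;Alb:Cre), from male C57Bl/6 mice of 8 to 12 weeks on a normal diet. Both livers carry the floxed Uhrf1 allele, and the Cre of the Uhrf1hepKO liver is driven by Alb, a hepatocyte gene, while whole liver was assayed. The same 2 livers served both assays. With 1 library per condition the spread between mice is unknown, so no test between livers was possible and no p-value is given. The 95% intervals beside shares (Wilson method) cover counting error only.

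Bidirectional promoters of this kind are common in mammals. They are usually rich in CpG, often lack a TATA box, and many serve housekeeping genes such as those of DNA repair and mitochondria. At an active TSS, a stretch without nucleosomes is cut readily by the transposase used in ATACseq. The nucleosomes on its borders often carry H2A.Z, and the one just inside the gene is called the +1 nucleosome. A head-to-head pair places a +1 nucleosome on each border of 1 shared open stretch. In bulk liver, a site open in few cells and a site weakly open in all cells cannot be told apart.

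Most pairs were short. The median distance between the TSSs was 128 bp, 603 pairs (82.0%) lay under 300 bp, and the single pair at 0 bp was Nsa2/Gfm2. By distance, 306 pairs had TSSs less than 100 bp apart, 201 lay at 100 to under 200 bp, 96 at 200 to under 300 bp, 64 at 300 to under 500 bp and 68 at 500 to 1000 bp. A total of 20 genes were in more than 1 pair, so 40 pairs shared a gene and often a peak, and 74 pairs held a gene known only by a Gm or Rik name. Among textbook examples, the rule found Brca1/Nbr1, Atm/Npat, Mcm4/Prkdc, Gart/Son, Hadha/Hadhb and Mrps12/Sars2, and 12 pairs of an H2a with an H2b histone gene. Hspd1/Hspe1, Paics/Ppat, Surf1/Surf2, Col4a1/Col4a2 and Tap1/Psmb9 overlap at their 5′ ends in this annotation and were outside it. Genes are named with the minus-strand gene first.

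The letters between the TSSs are printed for pairs on which the results below turn, from the RefSeq sequence of GRCm38, plus strand, with no annotated exon in the stretch. Capitals mark matches, on either strand, to 7 short motifs that were searched. These were CCGGAAG (bound by ETS factors), GCGCATGC (NRF1), ATGGCGGC (YY1), GGGCGG (SP1), CCAAT (NFY), the palindrome of ZBTB33 and the TATA box spelled TATAAA, and no motif contains another. The first 3 pairs had the highest ATACseq folds in WT among all pairs. Palb2/Dctn5 lies at chr7:122132986-122133040, Xab2/Pet100 at chr8:3621317-3621547 and Styxl1/Mdh2 at chr5:135778386-135778479.
Palb2/Dctn5: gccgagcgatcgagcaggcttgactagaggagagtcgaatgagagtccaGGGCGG
Xab2/Pet100: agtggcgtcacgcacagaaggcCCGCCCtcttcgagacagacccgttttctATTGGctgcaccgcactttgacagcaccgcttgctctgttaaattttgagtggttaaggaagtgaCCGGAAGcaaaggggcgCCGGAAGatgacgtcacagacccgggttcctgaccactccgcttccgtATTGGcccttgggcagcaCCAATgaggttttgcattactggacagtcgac
Styxl1/Mdh2: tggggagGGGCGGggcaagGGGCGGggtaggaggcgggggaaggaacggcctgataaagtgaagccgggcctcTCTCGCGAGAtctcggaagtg

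The next set shows textbook pairs whose gap could be printed, with Brca1/Nbr1 at chr11:101551956-101552148, Mrps12/Sars2 at chr7:28741821-28741991 and Hadha/Hadhb at chr5:30155163-30155247. A histone pair with ATACseq peaks in both livers (Hist1h2an/Hist1h2bp, chr13:21787219-21787460) stands beside one without any (Hist1h2bl/Hist1h2ai, chr13:21716144-21716421).
Brca1/Nbr1: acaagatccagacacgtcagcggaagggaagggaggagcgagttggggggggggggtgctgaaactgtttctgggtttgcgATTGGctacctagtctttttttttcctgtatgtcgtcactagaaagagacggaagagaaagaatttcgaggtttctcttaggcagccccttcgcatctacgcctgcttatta
Mrps12/Sars2: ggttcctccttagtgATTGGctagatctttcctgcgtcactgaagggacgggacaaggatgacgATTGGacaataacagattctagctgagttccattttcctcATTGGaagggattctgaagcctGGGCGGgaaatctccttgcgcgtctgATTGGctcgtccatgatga
Hadha/Hadhb: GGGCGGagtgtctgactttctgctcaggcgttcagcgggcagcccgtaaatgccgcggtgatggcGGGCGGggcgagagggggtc
Hist1h2an/Hist1h2bp: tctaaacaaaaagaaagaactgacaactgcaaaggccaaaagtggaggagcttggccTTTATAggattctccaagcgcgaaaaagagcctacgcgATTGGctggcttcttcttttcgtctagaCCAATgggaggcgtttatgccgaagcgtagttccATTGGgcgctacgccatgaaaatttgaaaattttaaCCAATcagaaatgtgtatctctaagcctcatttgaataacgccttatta
Hist1h2bl/Hist1h2ai: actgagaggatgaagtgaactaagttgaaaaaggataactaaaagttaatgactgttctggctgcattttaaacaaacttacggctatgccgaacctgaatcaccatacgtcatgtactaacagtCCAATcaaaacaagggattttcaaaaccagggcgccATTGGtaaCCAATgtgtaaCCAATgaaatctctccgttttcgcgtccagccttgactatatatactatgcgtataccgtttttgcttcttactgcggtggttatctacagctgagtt

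The last set shows Zranb3/R3hdm1 (chr1:128103048-128103300), which had the second highest WT H2A.Z fold, Nudt21/Ogfod1 (chr8:94037032-94037197), among the highest ATACseq folds at 100 to under 200 bp, and Eftud2/Ccdc103 (chr11:102880986-102881203), which had an H2A.Z summit between its TSSs.
Zranb3/R3hdm1: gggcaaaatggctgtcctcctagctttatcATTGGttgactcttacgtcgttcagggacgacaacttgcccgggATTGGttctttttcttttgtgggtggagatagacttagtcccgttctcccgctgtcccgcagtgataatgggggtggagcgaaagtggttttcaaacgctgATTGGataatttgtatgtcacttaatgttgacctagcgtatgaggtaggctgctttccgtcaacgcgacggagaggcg
Nudt21/Ogfod1: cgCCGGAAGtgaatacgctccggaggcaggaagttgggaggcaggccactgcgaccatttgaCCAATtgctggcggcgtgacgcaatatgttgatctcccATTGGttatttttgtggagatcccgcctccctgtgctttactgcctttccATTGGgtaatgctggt
Eftud2/Ccdc103: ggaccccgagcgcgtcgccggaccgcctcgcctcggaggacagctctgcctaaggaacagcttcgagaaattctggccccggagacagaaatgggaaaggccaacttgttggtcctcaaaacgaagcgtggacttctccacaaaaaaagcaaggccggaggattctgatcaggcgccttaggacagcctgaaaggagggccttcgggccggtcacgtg

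Nearly all head-to-head promoters carried H2A.Z, and about 6 in 10 had an ATACseq peak. An H2A.Z peak lay in the region of 656 of 735 pairs in WT (89.3%, 95% interval 86.8 to 91.3%) and 628 in Uhrf1hepKO (85.4%, 82.7 to 87.8%). An ATACseq peak lay in 473 regions in WT (64.4%, 60.8 to 67.7%) and 449 in Uhrf1hepKO (61.1%, 57.5 to 64.5%). Over all 20092 coding promoters, each pair counted once, the share with a peak within 500 bp was 43.1% and 41.7% for H2A.Z and 25.0% and 22.7% for ATACseq, in WT and Uhrf1hepKO. All 4 libraries had a peak at 366 pairs (49.8%), and 677 (92.1%) had one in at least 1 library. In WT, 458 pairs had both assays and 198 had H2A.Z without ATACseq, whereas 15 had ATACseq without H2A.Z and 64 had neither. In Uhrf1hepKO these counts were 418, 210, 31 and 76. The counts that combine libraries or assays are given for pairs alone. No share over other coding promoters stands beside them, so they do not set pairs apart.

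The share of pairs with an ATACseq peak differed with the distance between the TSSs, and that with H2A.Z much less so below 500 bp. The WT ATACseq share was 59.2% below 100 bp, 65.7% at 100 to under 200 bp, 81.3% at 200 to under 300 bp and 76.6% at 300 to under 500 bp, and it was 48.5% at 500 to 1000 bp. The Uhrf1hepKO liver gave 57.8%, 59.7%, 77.1%, 68.8% and 50% in the same order. The share at 200 to under 300 bp exceeded that below 100 bp by 22.1 percentage points in WT and 19.2 in Uhrf1hepKO. The intervals of the difference lay above 0 in both. The first of these classes had the highest share in both livers, and a contrast made with the highest class favours a wide difference. H2A.Z covered 92.8%, 88.6%, 91.7%, 85.9% and 75% of the classes in WT and 88.9%, 83.1%, 86.5%, 87.5% and 73.5% in Uhrf1hepKO. Longer pairs have longer regions. In equal windows reaching 500 bp to each side of the midpoint, the WT ATACseq shares were 59.2%, 65.7%, 81.3%, 76.6% and 45.6%. CpG content moved with the last step alone, since the median CpG count of that window was 69, 72, 72 and 69.5 in the first 4 classes and 50 in the last. Its part in the result was not tested.

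**Figure D1:**
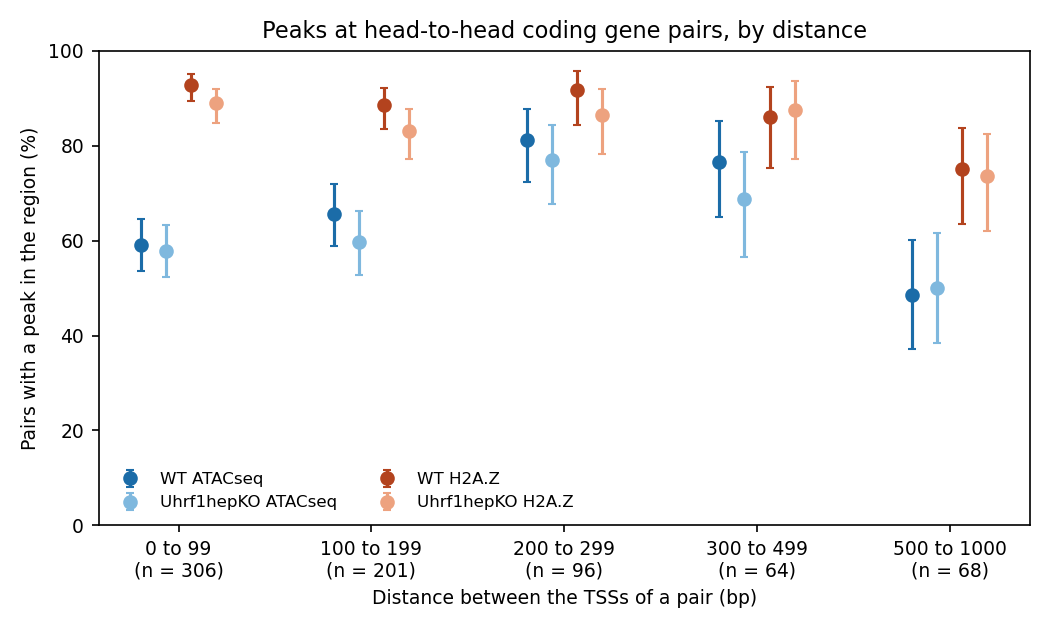
Share of head-to-head pairs (%) with at least 1 peak in the region, by distance between the TSSs (bp), in the 4 libraries. Points are shares and bars are 95% Wilson intervals, which cover counting error only. ATACseq is highest at 200 to under 300 bp in both livers (81.3% and 77.1%), and H2A.Z lies above 80% in every class below 500 bp.

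Open pairs nearly always had a single ATACseq peak, which mostly reached into the gap. Of the 473 pairs with a WT ATACseq peak, 2 had more than 1 peak, and of 449 in Uhrf1hepKO, 6 did. The WT peak touched the gap at 444 of 473 pairs (93.9%) and covered both TSSs at 281 (59.4%). It covered both TSSs at 78.5% of open pairs below 100 bp, 62.9% at 100 to under 200 bp, 39.7% at 200 to under 300 bp, 42.9% at 300 to under 500 bp and 12.1% at 500 to 1000 bp. The centre of a peak lay between the TSSs at 52.0% of open pairs in WT and 48.3% in Uhrf1hepKO, and below 100 bp at 26.0% and 18.1%. The strongest WT peak of a pair was 335 bp wide in the median, wider than most gaps, and its centre was 70 bp from the midpoint. The reads are described as single-end but were called with a paired-end option, which bears on these widths and on the cover of both TSSs. Per kb of sequence, ATACseq centres numbered 1.75 in the gaps and 0.308 in the flanks in WT, against 1.54 and 0.316 in Uhrf1hepKO. The excess in the gap was seen in each class. Between livers, the centre of the strongest ATACseq peak at the 396 pairs open in both moved by 46 bp in the median, with a signed median of -5 bp.

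In pairs below 300 bp, H2A.Z had the opposite layout, with summits denser in the flanks than in the gap. Counted by summit, WT H2A.Z lay on both sides of 300 pairs (40.8%), on 1 side of 310 (42.2%), between the TSSs alone in 24 and at the region's edge alone in 22. In Uhrf1hepKO these were 276 (37.6%), 306 (41.6%), 23 and 23. The share with both sides fell to 21.0% in each liver with a flank of 250 bp, and to 25.6% and 24.9% among peaks no weaker than the median fold. Of the 300 pairs flanked on both sides in WT, 221 were so in Uhrf1hepKO. Of 207 pairs with 1 side in both livers, 201 (97.1%) had the same side. Pairs with a WT ATACseq peak were flanked on both sides in 49.5% of cases (45.0 to 54.0%), against 25.2% (20.3 to 30.8%) of pairs without one. The Uhrf1hepKO values were 45.7% and 24.8%.

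H2A.Z summits entered the gap only as it widened. No WT summit lay in the gaps of the 306 pairs below 100 bp, which allows a share of pairs of up to 0.980%. A summit was in the gap of 2.99% of pairs at 100 to under 200 bp, 21.9% at 200 to under 300 bp, 54.7% at 300 to under 500 bp and 58.8% at 500 to 1000 bp. The Uhrf1hepKO shares were 0, 2.99%, 20.8%, 53.1% and 54.4%. Wider gaps offer more sequence, so the density matters more. In WT it was 0.206 summits per kb of gap at 100 to under 200 bp, 0.889 at 200 to under 300 bp and 1.49 at 300 to under 500 bp, against 1.42, 1.42 and 1.29 per kb of flank. At 500 to 1000 bp, gap (1.01) and flank (0.969) were nearly equal.

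**Figure D2:**
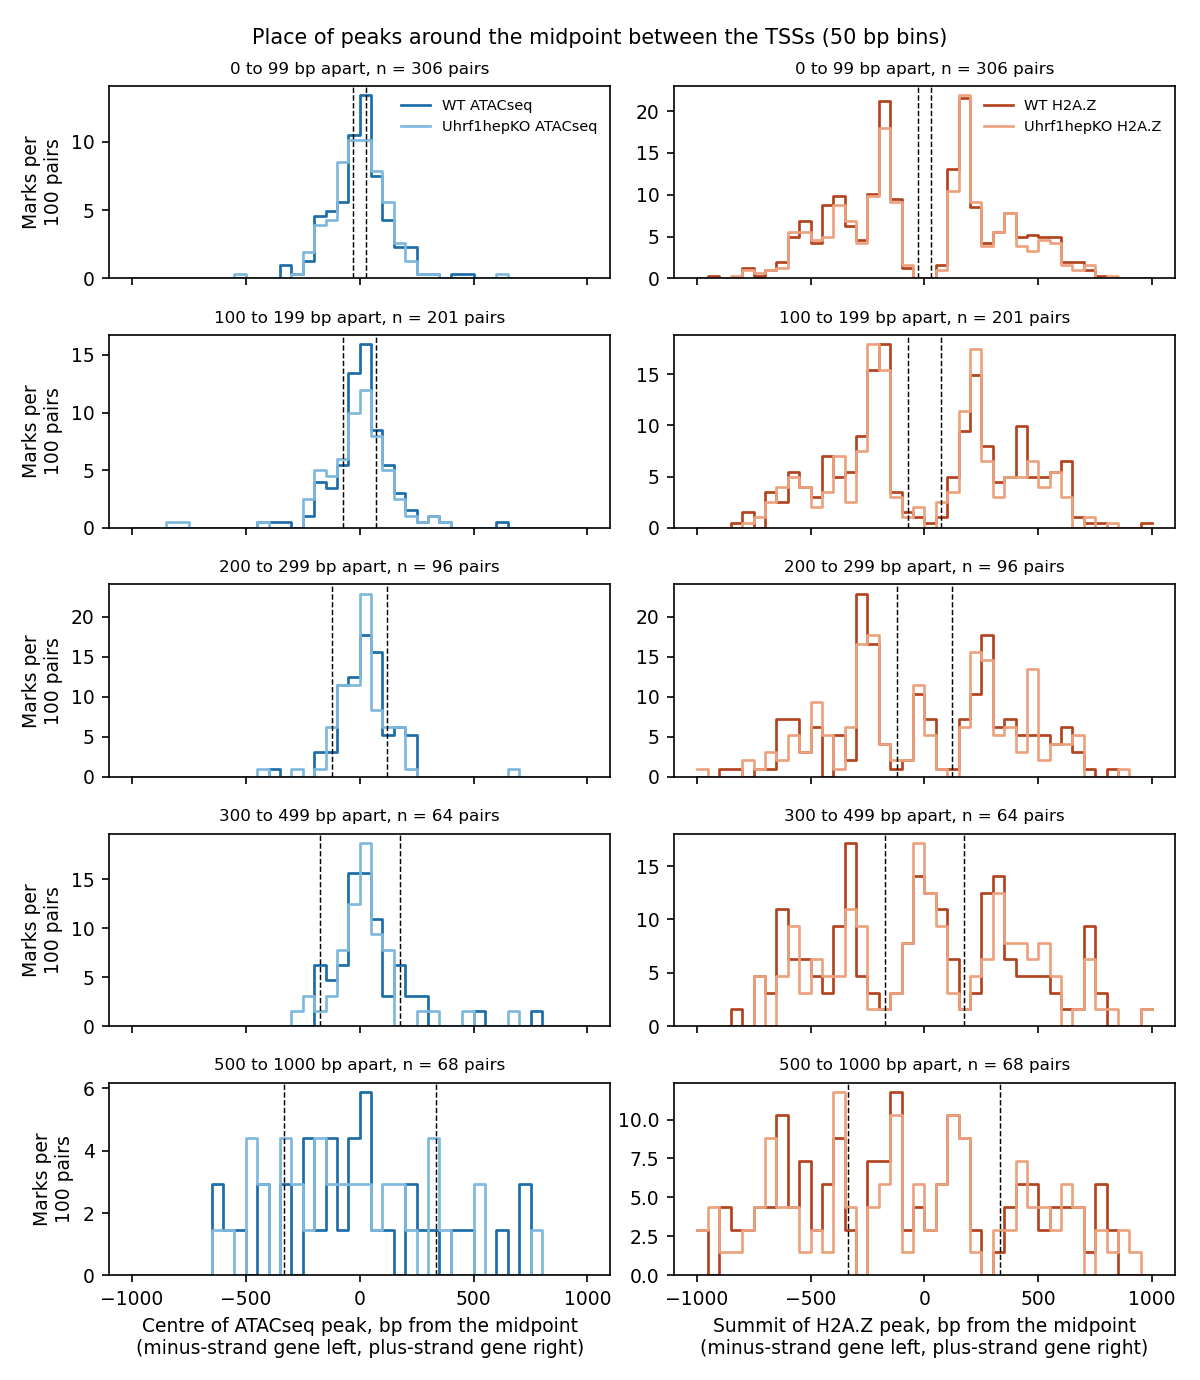
Centres of ATACseq peaks (left) and summits of H2A.Z peaks (right) per 100 pairs in bins of 50 bp, by distance from the midpoint between the TSSs (bp), with 1 row per distance class. Dark lines are WT, pale lines are Uhrf1hepKO, and dashed lines mark TSSs at the median distance of the class. ATACseq centres gather around the midpoint, with 26.0% of open WT pairs below 100 bp and 85.7% at 300 to under 500 bp having theirs between the TSSs, and H2A.Z summits form 1 hill on each side of them, with a central hill from 200 bp upward that is clearest at 300 to under 500 bp. At 500 to 1000 bp both marks are spread out.

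The first H2A.Z summit inside each gene lay at a similar median distance from that gene's TSS in every class. Only summits within 500 bp of the TSS count, which bounds each distance. Single pairs varied, with WT quartiles of 127 to 289 bp on the minus-strand gene and 124 to 283 bp on the plus-strand gene. In WT the median inward distance was 166 bp on the minus-strand gene (469 pairs) and 159 bp on the plus-strand gene (441 pairs), and in Uhrf1hepKO it was 168 and 159 bp. By class, the WT medians ran from 143 to 176 bp on the minus-strand gene and from 142.5 to 174 bp on the plus-strand gene. The span between the innermost summits on the 2 sides grew with the gap. Its WT median was 470.5 bp below 100 bp, 517 bp at 100 to under 200 bp, 590.5 bp at 200 to under 300 bp, 744.5 bp at 300 to under 500 bp and 1041 bp at 500 to 1000 bp. A span cannot be shorter than the gap or exceed it by more than 1000 bp, so its rise is partly fixed by the rule. At the 221 pairs flanked in both livers, the span differed by -3 bp in the median (Uhrf1hepKO minus WT), and 44.3% of spans were within 20 bp of each other.

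**Figure D3:**
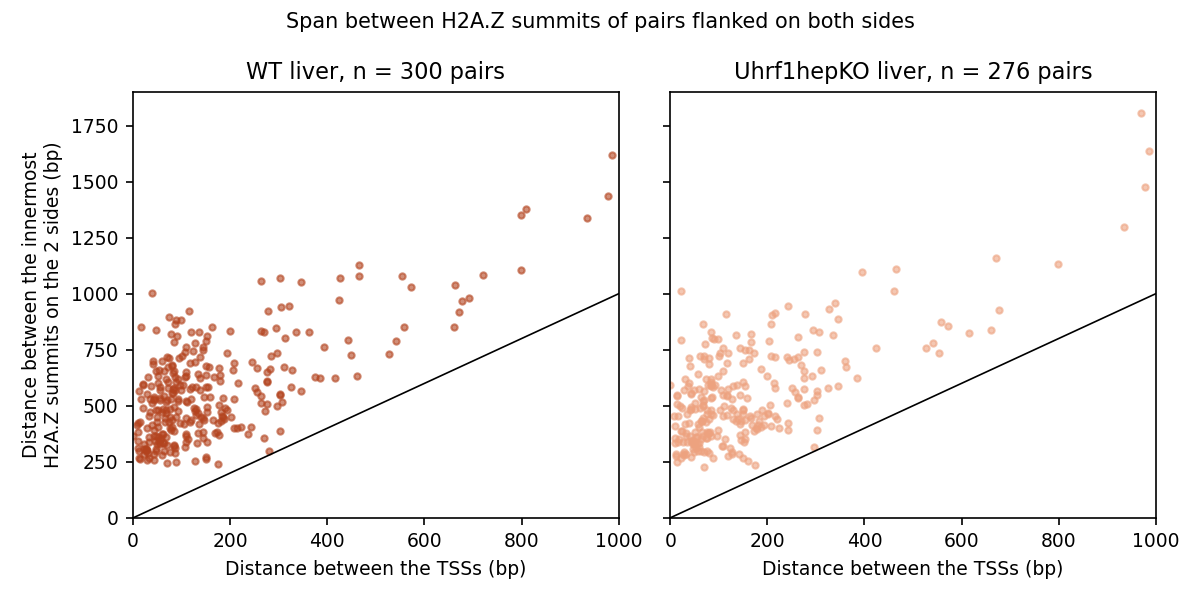
Distance between the innermost H2A.Z summits on the 2 sides (bp) against the distance between the TSSs (bp), for the 300 WT (left) and 276 Uhrf1hepKO pairs (right) flanked on both sides. Each point is a pair, and the line marks equal values, the lowest span the rule allows. Spans sit above the line in both livers and rise with the gap.

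Beside other coding promoters, head-to-head promoters more often had a peak in every library. In these equal windows, centred on the TSS for other genes, a WT ATACseq peak lay at 64.1% of pairs (60.5 to 67.5%) and at 23.5% of the 19357 coding genes in no pair. For Uhrf1hepKO ATACseq the shares were 60.7% and 21.2%, for WT H2A.Z 88.6% and 41.4%, and for Uhrf1hepKO H2A.Z 84.5% and 40.1%. The pairs were also richer in CpG, with a median of 69 CpGs in the window against 39, and 60.2% against 54.5% G and C. Among windows with 60 to 79 CpGs, a WT ATACseq peak lay at 74.4% of 242 pairs (68.5 to 79.5%) and 45.8% of 3042 other promoters (44.0 to 47.5%), and WT H2A.Z at 95.9% and 70.5%. From 40 CpGs upward, the intervals of pairs and others did not overlap in any of the 4 libraries. Of the 21 pairs with under 20 CpGs, 1 had a WT ATACseq peak and 5 had WT H2A.Z. A pair's window holds 2 TSSs and that of another gene at least 1, and the part of this in the difference was not tested.

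**Figure D4:**
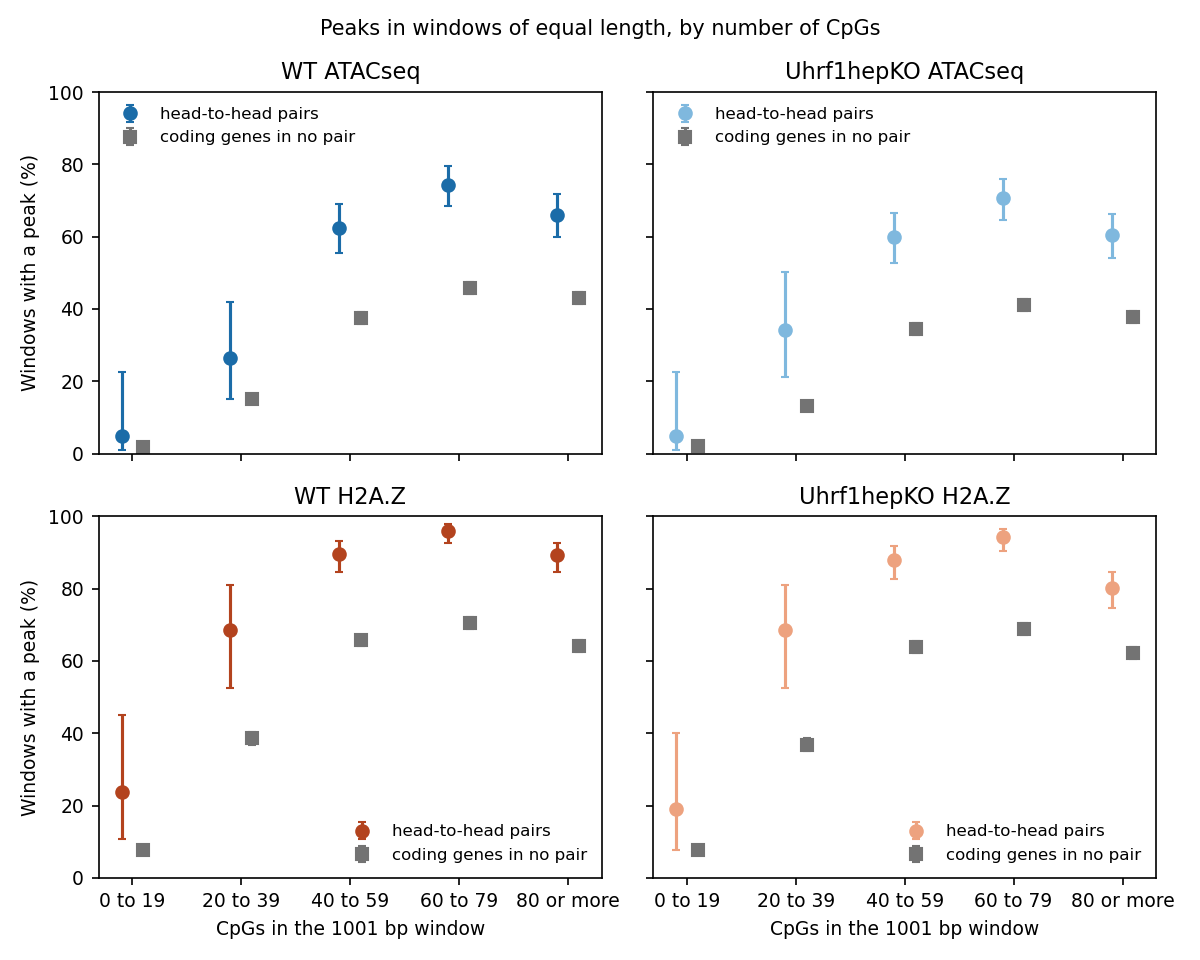
Share of equal windows (500 bp to each side, in %) with a peak, by the number of CpGs in the window, for head-to-head pairs (coloured circles) and coding genes in no pair (grey squares), with 1 panel per library. Bars are 95% Wilson intervals for counting error. In each class from 40 CpGs the pairs lie above the other genes, as at 60 to 79 CpGs in WT ATACseq (74.4% against 45.8%).

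The peaks at pairs also ranked higher within their lists in ATACseq. Folds are not scaled between libraries, so they are given as percentiles of a library's own list. The strongest WT ATACseq peak of a pair's window was at the 72.2th percentile in the median (quartiles 48.4 to 87.5), against 62.2 for coding genes in no pair. In Uhrf1hepKO these medians were 72.5 and 63.7. For H2A.Z they were 84.0 against 82.0 in WT and 82.8 against 80.6 in Uhrf1hepKO, so the difference was small there.

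At a gene in no pair, the upstream side faces no head-to-head coding partner within 1000 bp. WT H2A.Z summits lay within 500 bp upstream of 31.8% and within 500 bp downstream of 22.8% of these genes, and on both sides of 15.8%. Below 40 CpGs the downstream side was the higher one, with 4.29% upstream and 4.79% downstream under 20 CpGs and 25.2% and 30.1% at 20 to 39 CpGs. Pairs had a summit on the minus-gene side in 63.8% and on the plus-gene side in 60%. With 80 or more CpGs, the downstream side of other genes held WT H2A.Z in 16.5%, against 57.9% and 48.3% for the 2 gene sides of pairs. In that class the upstream side of other genes reached 49.7%, close to the sides of pairs.

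Promoter letters differed as well. From 250 bp before to 50 bp after the TSS, CCGGAAG was in 27.6% of the 1450 genes in pairs and 9.81% of coding genes in no pair (11.0% of all). GCGCATGC was in 6.90% against 3.20% (3.46% of all), ATGGCGGC in 6.83% against 2.32% (2.63%), GGGCGG in 69.0% against 41.9% (43.8%) and the ZBTB33 motif in 2.41% against 0.496% (0.630%). CCAAT was in 43.6% against 38.3% (38.6%). TATAAA went the other way, with 4.14% against 13.4% (12.7%). Windows of the genes of a pair overlap, so a match can count for both. A match is only a match of letters. These shares were not split by CpG or by G and C content, although pairs were richer in both (median 69 against 39 CpGs in equal windows). The part of composition in the motif shares was not tested.

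Pairs with CCAAT within 150 bp of the midpoint were more often open. A WT ATACseq peak lay at 252 of 327 pairs with it (77.1%, 72.2 to 81.3%) and 221 of 408 without (54.2%, 49.3 to 58.9%), and in Uhrf1hepKO at 74.3% and 50.5%. H2A.Z barely moved with it, at 90.5% and 88.2% in WT. CCAAT was found at 32.7% of pairs below 100 bp, 51.7% at 100 to under 200 bp, 60.4% at 200 to under 300 bp, 57.8% at 300 to under 500 bp and 41.2% at 500 to 1000 bp. By class, WT ATACseq covered 71% of pairs with CCAAT and 53.4% without below 100 bp, 80.8% and 49.5% at 100 to under 200 bp, 89.7% and 68.4% at 200 to under 300 bp, 81.1% and 70.4% at 300 to under 500 bp, and 53.6% and 45% at 500 to 1000 bp. From 200 bp the WT intervals overlapped. In Uhrf1hepKO the shares at 200 to under 300 bp were 89.7% (79.2 to 95.2%) and 57.9% (42.2 to 72.1%), whose intervals did not overlap. At 300 to under 500 bp they were 70.3% and 66.7%. The 200 to under 300 bp class led in both CCAAT and ATACseq, and the part of CCAAT in the ATACseq shares by distance was not tested. GCGCATGC went with 83.7% against 63.0% in WT ATACseq. The ZBTB33 motif went with 83.3% (15 of 18 pairs, 60.8 to 94.2%) against 63.9% (60.3 to 67.3%), and these WT intervals overlapped. In Uhrf1hepKO its shares were 88.9% (67.2 to 96.9%) and 60.4% (56.8 to 63.9%). Genes in no pair went the same way. Their WT ATACseq shares with and without the motif were 29.5% and 20.2% for CCAAT, 56.5% and 22.5% for GCGCATGC, and 82.5% and 23.3% for the ZBTB33 motif. CCGGAAG made little difference to WT ATACseq among pairs (63.5% and 64.7%), although among genes in no pair it went with 47.1% against 20.7%. WT H2A.Z lay at 94.7% of pairs with CCGGAAG (90.8 to 97.0%) and 87.1% of those without (84.0 to 89.7%). In Uhrf1hepKO the H2A.Z shares were 91.8% (87.3 to 94.8%) and 82.9% (79.5 to 85.9%). These H2A.Z intervals did not overlap in either liver. ATGGCGGC went with 46.9% open pairs (33.7 to 60.6%) against 65.6% in WT. In Uhrf1hepKO it went with 53.1% (39.4 to 66.3%) against 61.7%, where the intervals overlapped. Among genes in no pair it went with more open promoters (50.6% against 22.5% in WT). GGGCGG went with 67.0% (62.8 to 71.0%) against 58.7% (52.3 to 64.8%) in WT. Its WT intervals overlapped in each class below 500 bp. At 500 to 1000 bp the WT shares were 77.8% of 27 pairs (59.2 to 89.4%) and 29.3% of 41 (17.6 to 44.5%). In Uhrf1hepKO they were 70.4% and 36.6%, with overlapping intervals. TATAAA went with 51.5% of 33 pairs (35.2 to 67.5%) against 65.0% in WT.

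Folds of ATACseq were highest at Palb2/Dctn5, Xab2/Pet100 and Styxl1/Mdh2 in WT. Palb2, which links Brca1 and Brca2 in homologous recombination, shares its promoter with Dctn5, a subunit of dynactin. Its WT ATACseq peak had a fold of 10.8 and was 140 bp wide over a gap of 56 bp, and the Uhrf1hepKO peak had a fold of 6.85. Xab2, a protein of transcription-coupled repair and splicing, faces Pet100, an assembly factor of cytochrome oxidase. That gap holds CCGGAAG at 2 places and CCAAT at 3, and folds were 9.96 and 8.44. At Styxl1/Mdh2, the side of Mdh2, the mitochondrial malate dehydrogenase, was covered by peaks with folds of 8.81 and 8.53, and the gap holds the ZBTB33 motif. Styxl1/Mdh2 had weak H2A.Z on both sides in WT (folds 4.63 and 3.90) and none in Uhrf1hepKO.

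The highest H2A.Z folds were seen at different pairs. Uqcr10, a subunit of respiratory complex III, and Zmat5, a component of the minor spliceosome, lie 336 bp apart. The summit between them had a fold of 18.3 in WT and 14.2 in Uhrf1hepKO, the highest and the 99.8th percentile of their lists, with further peaks inside each gene. No WT ATACseq peak was called there, and the Uhrf1hepKO peak (fold 4.42) lay over the gap. Zranb3, a DNA helicase of stalled forks, and R3hdm1 had summits 460 bp inside Zranb3 in both livers, with folds of 15.8 and 16.0. Btf3l4/Txndc12 at 987 bp had 2 summits in its gap, the stronger 142 bp before the Txndc12 TSS in WT (fold 15.4) and 140 bp before it in Uhrf1hepKO (fold 17.0). Txndc12 is a thioredoxin of the endoplasmic reticulum.

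Pairs with high WT ATACseq folds in the other distance classes were as follows. At 100 to under 200 bp, Casc1/Etfrf1 had a fold of 8.71 (6.81 in Uhrf1hepKO) and Nudt21/Ogfod1, with the polyadenylation factor Nudt21, 8.05 (8.61). At 200 to under 300 bp, Eftud2/Ccdc103, with a GTPase of the spliceosome, followed Xab2/Pet100 with 8.32 (6.57). Its H2A.Z summit in the gap had a fold of 9.51 in WT and 11.4 in Uhrf1hepKO. At 300 to under 500 bp, Gm10644/Asf1b, with the histone chaperone Asf1b, had 7.12 (7.30). At 500 to 1000 bp, Actn3/Zdhhc24 had 7.25 (7.83).

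The textbook pairs showed how layouts vary. Brca1, of homologous recombination, and the autophagy receptor Nbr1 had H2A.Z on both sides, with summits 208 bp inside Brca1 and 80 bp inside Nbr1 in WT (177 and 83 bp in Uhrf1hepKO). The WT ATACseq peak was centred 542 bp inside Nbr1 (fold 4.52), and the Uhrf1hepKO peak (fold 4.27) was 913 bp wide and reached back over the gap. Atm, a kinase of the DNA damage response, and Npat, an activator of histone genes, had ATACseq folds of 6.73 and 5.89 over the gap, with H2A.Z mainly on the Atm side. Mcm4, of the replicative helicase, and Prkdc, the kinase of end joining, had folds of 6.28 and 5.38 in peaks over both TSSs, and H2A.Z on both sides and in the gap.

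Gart, of purine synthesis, and the splicing cofactor Son lie 554 bp apart. Their ATACseq peak lay inside Son in both livers (folds 5.43 and 5.08), and a separate peak in the gap was called in Uhrf1hepKO alone (fold 4.09). Hadha and Hadhb, which encode the subunits of the trifunctional protein of fatty acid oxidation, had a weak WT ATACseq peak (fold 3.69, 18.9th percentile) and none in Uhrf1hepKO. Their H2A.Z summit lay 40 bp inside Hadha in WT (fold 9.26) and 37 bp inside it in Uhrf1hepKO (fold 8.37), closer than the usual distance. Mrps12, of the mitochondrial ribosome, and Sars2, the mitochondrial seryl-tRNA synthetase, had 106 bp between TSS and first summit on both sides in WT. Their gap holds CCAAT at 4 places.

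**Figure D5:**
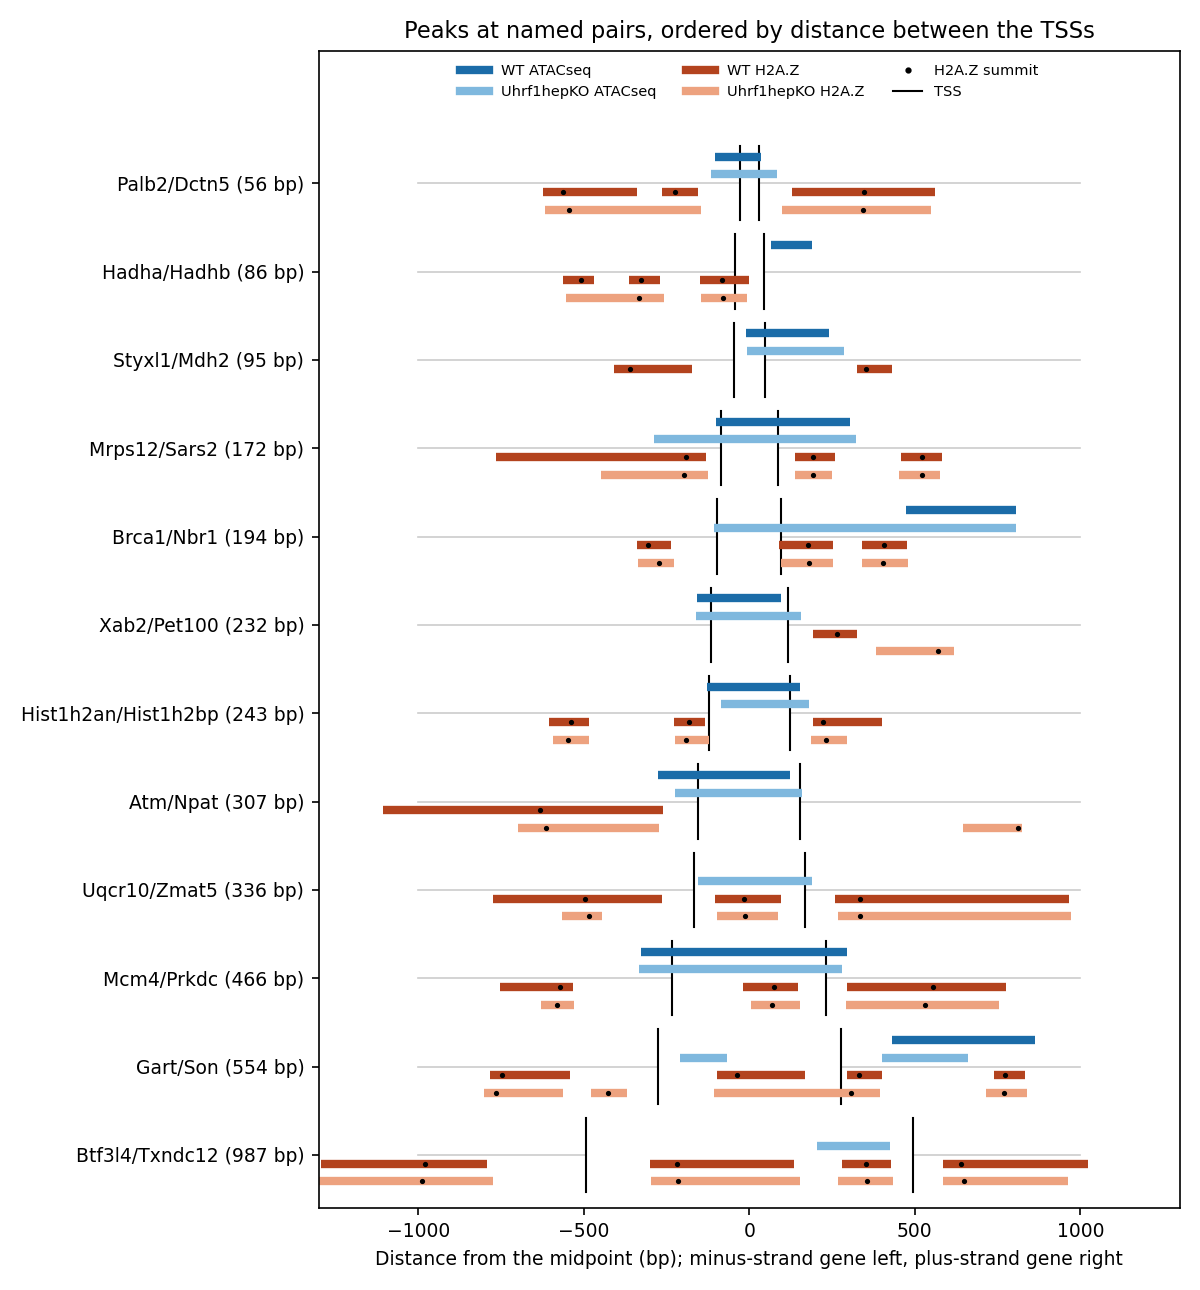
Peaks at 12 named pairs, drawn to scale by distance from the midpoint between the TSSs (bp), with the gap in parentheses. Bars are peaks in the 4 libraries, dots are H2A.Z summits and vertical lines are TSSs. Palb2/Dctn5 and Xab2/Pet100 have 1 ATACseq peak over the gap, and Uqcr10/Zmat5 and Btf3l4/Txndc12 have H2A.Z within it.

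Replication-dependent histone genes were common among the pairs, with 27 of 67 genes in 14 pairs. ATACseq peaks lay at 9 of the 14 in each liver (64.3%) and H2A.Z at 13 in each, near the shares over all pairs (64.4% and 61.1% for ATACseq, 89.3% and 85.4% for H2A.Z). Their median distance was 259.5 bp, and CCAAT stood in both histone gaps printed above. Hist1h2an/Hist1h2bp had ATACseq folds of 5.56 and 6.90 with H2A.Z on both sides, and Hist1h2ag/Hist1h2bj had 5.77 and 5.09. Hist1h2bl/Hist1h2ai and Hist1h2bf/Hist1h2ad had H2A.Z without ATACseq, and Hist1h2ba/Hist1h2aa, whose genes are known for their use in the male germline, had no peak in any library. Hist2h2ac/Hist2h2be and Hist1h2ae/Hist1h2bg had ATACseq in Uhrf1hepKO alone, and Hist1h2ah/Hist1h2bk in WT alone. These genes have near-identical copies that can share reads, so their peaks are uncertain.

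Other gene groups joined such pairs to different degrees. DNA repair genes led with 48 of 139 genes in pairs (34.5%), followed by mitochondrial ribosomal proteins with 18 of 78 (23.1%) and oxidative phosphorylation with 27 of 120 (22.5%), beside 6.97% of all coding genes. Proteasome subunits had 7 of 49, tRNA synthetases 5 of 37 and cytosolic ribosomal proteins 9 of 80. Of the study's liver enriched genes, 4 of 256 (1.56%) were in pairs. The peak counts that follow stand beside 64.4% and 61.1% of all pairs for ATACseq and 89.3% and 85.4% for H2A.Z, in WT and Uhrf1hepKO, and several are close to those shares. All 50 pairs with a DNA repair gene had WT H2A.Z and 37 (74.0%) had WT ATACseq, with 49 and 33 (66.0%) in Uhrf1hepKO. The 18 pairs with a mitochondrial ribosomal gene had WT H2A.Z in every case, and ATACseq in 16 in WT and 12 in Uhrf1hepKO. WT H2A.Z lay on both sides in 16 of these 18 pairs, beside 40.8% of all pairs. It did so in 30 of the 50 DNA repair pairs, 11 of 27 oxidative phosphorylation pairs and 3 of 9 cytosolic ribosomal pairs. The 27 oxidative phosphorylation pairs had ATACseq in 21 in each liver, and H2A.Z in 26 and 25. Of the 9 pairs with a cytosolic ribosomal protein, 4 had WT and 6 had Uhrf1hepKO ATACseq.

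The 4 liver enriched pairs were modest. Rprd1b in Tti1/Rprd1b had ATACseq folds of 4.84 and 3.48 and H2A.Z on both sides in both livers. Slc25a47, a mitochondrial carrier of the liver, in Slc25a29/Slc25a47 had 3.81 and 4.13. Spsb3 in Nubp2/Spsb3 had 3.82 and 5.37, with H2A.Z in WT alone. The complement gene C2, beside the H3K9 methyltransferase gene Ehmt2, had no ATACseq peak, and its WT H2A.Z summit lay in the gap (fold 5.61).

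Pairs with a peak in 1 liver alone were more frequent in ATACseq than in H2A.Z. ATACseq peaks were in both livers at 396 pairs, in WT alone at 77, in Uhrf1hepKO alone at 53 and in neither at 209. Among the stronger peaks alone (a fold no lower than the list's median), the ATACseq counts in 1 liver alone were 64 in WT and 66 in Uhrf1hepKO, so the excess in WT did not hold under that setting. With a q-value of 0.01 or below they were 85 and 47, and the other settings run for these counts also kept the excess. For H2A.Z the counts were 620, 36, 8 and 71. The 8 pairs became 27 with peaks at or above the median fold, 22 with a flank of 250 bp and 18 where 50% of the peak had to lie inside the region, against 47, 52 and 48 in WT alone. In equal windows with a peak in either liver, 14.6% of 522 pairs (11.8 to 17.8%) had ATACseq in WT alone and 9.77% in Uhrf1hepKO alone, where coding genes in no pair had 21.7% and 13.1%. For H2A.Z, 5.91% of 660 pairs had it in WT alone and 1.36% in Uhrf1hepKO alone, where the others had 7.28% and 4.42%. Peaks in both livers were thus 75.7% and 92.7% at pairs and 65.2% and 88.3% elsewhere. Out of all windows, the shares at genes in no pair were 17.7%, 5.87% and 3.55% for ATACseq and 38.2%, 3.15% and 1.91% for H2A.Z, in both livers, in WT alone and in Uhrf1hepKO alone.

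Peaks called in 1 liver alone were weaker than those called in both. ATACseq peaks of WT alone had a median at the 39th percentile of the WT list, where those in both livers had 77.1. In Uhrf1hepKO these were 47.8 and 74.8. For H2A.Z, they were 34.8 and 84.0 in WT and 49.1 (8 pairs) and 82.8 in Uhrf1hepKO. The H2A.Z background read from the folds was 3.10 reads in WT and 3.30 in Uhrf1hepKO. ATACseq folds are means over a region and did not give a background, so the depth of those lists is unknown. The part of depth in these calls was not tested.

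The strongest of these pairs were the following. For ATACseq in WT alone they were Tctn3/Entpd1 (fold 6.15), Cc2d1a/4930432K21Rik (6.09) and Sptbn4/Blvrb (5.38), the last with biliverdin reductase B. In Uhrf1hepKO alone, Txndc9/Eif5b, with the translation factor Eif5b, had a fold of 6.37 in a peak centred 710 bp inside Txndc9 that overlaps the edge of the region, and 1 peak of fold 6.19 lay at both pairs of Txndc17, Gm43951/Txndc17 and 4933427D14Rik/Txndc17. H2A.Z in WT alone was strongest at 4930430F08Rik/1700017N19Rik (fold 9.99, with the summit 999 bp inside the first gene and so outside the region), Ccdc148/Pkp4 (6.34) and Peg3/Usp29 (6.09). Peg3 and Usp29 are imprinted genes, and the peak lay 621 bp inside Peg3 at the edge of the region. In Uhrf1hepKO alone, H2A.Z was strongest at Med29/Paf1 (fold 6.04), Pcsk4/Reep6 (6.04) and Rom1/Eml3 (5.58). Med29 belongs to Mediator and Paf1 to an elongation complex.

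Pairs with a cell proliferation gene had fewer ATACseq peaks in the Uhrf1hepKO liver. Of 65 such pairs, 50 (76.9%) had a peak in WT and 36 (55.4%) in Uhrf1hepKO, with 16 in WT alone and 2 in Uhrf1hepKO alone. The other 670 pairs had 423 (63.1%) and 413 (61.6%), with 61 and 51 in 1 liver alone. The study chose this gene list from open chromatin states of WT liver that rest on ATACseq and H2A.Z, so the WT share and the direction are not independent evidence. At the 16 pairs of WT alone, the strongest WT peak ranged from the 6.65th to the 70.4th percentile, with a median of 43.0. The 34 pairs with a peak in both livers had a median of 86.7. Pairs that share Dclre1b or Stag3 among the 16, and Pms1 among the 34, had equal percentiles, so a peak can count more than once. The 16 pairs included Dbf4/Slc25a40, Pxmp2/Pole and Emc3/Fancd2, named after their values were seen. These hold an activator of replication origins, a DNA polymerase and a Fanconi anaemia gene. With peaks at or above the median fold alone, the counts were 7 in WT alone and 1 in Uhrf1hepKO alone. H2A.Z was at 63 of the 65 pairs in WT and 60 in Uhrf1hepKO. A DNA repair gene was in 28 of the 65 pairs, so these counts and those of the DNA repair group share pairs.

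The shortest and longest pairs closed the range. Nsa2/Gfm2 at 0 bp had H2A.Z on both sides in both livers and ATACseq in Uhrf1hepKO alone (fold 3.74). Bag4/Lsm1 and Slc7a6os/Prmt7, each at 1 bp, had H2A.Z in both livers, and Bag4/Lsm1 had ATACseq folds of 4.62 and 4.11. At the other end, Zfyve26/Rad51b at 978 bp had ATACseq folds of 5.84 and 6.57 nearer Zfyve26 and H2A.Z on both sides and in the gap.

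The lists held 10758 and 10972 ATACseq peaks and 51702 and 47391 H2A.Z peaks, in WT and Uhrf1hepKO. Of 6 hepatocyte marker genes, 0 had ATACseq within 500 bp of the TSS in WT and 1 in Uhrf1hepKO, with H2A.Z at 1 and 0, and markers of Kupffer, endothelial, bile duct and stellate cells had none, so these lists do not show the cell type. Uhrf1 itself is in no pair. It had 1 H2A.Z peak within 500 bp of its TSS in each liver and no ATACseq peak there, which does not test the deletion.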

How the data were processed

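Livers were profiled by ATACseq and by ChIPseq for H2A.Z, with 1 library per genotype and assay. The authors aligned reads to GRCm38.p4 by BWA-MEM. PICARD served for cleaning, sorting and, for ChIPseq, removal of duplicates. They called peaks per library with MACS2 at a p-value of 0.05, in broad mode for ATACseq. The largest q-values in the deposited lists were 0.0997 and 0.0993 for ATACseq and 0.050 and 0.0489 for H2A.Z, in WT and Uhrf1hepKO, so a limit on q may also have applied. The methods describe single-end ATACseq reads but a paired-end calling option, which bears on ATACseq peak widths. Versions of MACS2, BWA and PICARD, any control library and the H2A.Z mode are not given in the sources used here. The submitters' processing notes also name FastQC 0.11.5 and Trimmomatic. Each deposited peak has a display score, a fold that is the ratio of pileup to local background (the mean over the region for ATACseq, the summit value for H2A.Z), −log10 p- and q-values and, for H2A.Z, a summit position. No deposited value is scaled between libraries.

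From these, peaks were assigned to regions by an overlap of 1 bp, ATACseq by centre and H2A.Z by summit. Positions are 1-based in GRCm38, genes and TSSs (5′ ends of genes) are from GENCODE vM21, and sequence is from RefSeq GRCm38. Percentiles rank folds within a list. Depth is known only through the lists: for H2A.Z a peak's fold and Poisson p-value gave the pileup and background, and 93.8% and 91.3% of folds in WT and Uhrf1hepKO fell within 0.01 of a whole read on that step. For ATACseq 4.14% and 4.66% did, so no background is given. Shares have Wilson 95% intervals, and a count of 0 allows up to 3 counts. Pairs named are textbook examples and H2a/H2b pairs, the 3 highest WT folds per assay, the 2 highest WT ATACseq folds per distance class, the 3 highest in 1 liver alone per liver and assay, liver enriched pairs, and the 3 shortest and 3 longest with a WT peak. Some pairs under this rule are not reported here. Members, lists and alternatives were chosen with earlier results of these data known. Liver enriched and cell proliferation genes are the study's lists. Alternatives covered peak strength, flanks, overlap, shared genes and TSS choice. Pair finding and placing were tested on simulated data, where all 200 planted pairs were found. The code ran in Python 3.11.15 with scipy 1.17.1 for intervals, numpy 2.4.6 and pandas 2.3.3 for tables and pysam 0.24.0 for sequence.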

Additional observations from a re-analysis of the deposited data

How the results depend on the processing

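No paired analysis was possible because each condition has 1 library. Of 128 values recomputed under alternatives, 88 moved by less than their counting interval (for counts, 1.5 times), and 40 moved further. The order of the livers turned for ATACseq with peaks at or above the median fold. Taking each gene in 1 pair (715 pairs), TSSs from protein_coding transcripts (763 pairs) or no histone pairs (721 pairs, added after seeing the data) moved none.

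Values are given as WT then Uhrf1hepKO. With peaks at or above the median fold, pairs with a peak were 46.9% and 47.2% for ATACseq and 79.6% and 76.9% for H2A.Z, both-side H2A.Z was 25.6% and 24.9%, ATACseq in 1 liver alone was 64 and 66 pairs, and H2A.Z in Uhrf1hepKO alone rose from 8 to 27 pairs. In equal windows, pairs had 46.7% and 46.8% for ATACseq and 78.4% and 75.8% for H2A.Z, where genes in no pair had 15.2%, 13.9%, 35.1% and 33.5%. Cell proliferation pairs in 1 liver alone, an alternative added after seeing the data, were 7 and 1, and with a q-value of 0.01 or below 12 and 1. That q-value left 56.7% and 51.6% of pairs with ATACseq. A flank of 250 bp gave H2A.Z at 83.0% and 78.9% of pairs, on both sides at 21.0% in each liver, and 22 pairs in Uhrf1hepKO alone. Requiring 50% of the peak inside the region gave H2A.Z at 86.3% and 82.2%, and 18 pairs in Uhrf1hepKO alone. Counting a side by any base of a peak, also added, gave both sides at 49.1% and 45.3%. Windows of 250 bp on each side gave H2A.Z at 78.4% and 74.6% of pairs, and at genes in no pair 22.2% and 20.2% for ATACseq and 35.3% and 33.8% for H2A.Z. The 16315 genes in no pair with no other TSS within 1000 bp had 20.3% and 18.2% for ATACseq and 37.1% and 35.9% for H2A.Z. Pairs stayed above genes in no pair under every window setting run. The lists omit sites with too few reads, so a missing peak is not a closed site.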

Other observations

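Some pairs were bare. At 58 of 735 pairs no library had a peak in the region, and the median CpG count of their equal windows (500 bp to each side of the midpoint) was 44.5, against 69 over all pairs. The share of other coding promoters without a peak in any library is not given, so this count does not set pairs apart. The bare pairs were chosen for this description after their values were seen. Several hold genes known for their use in other tissues. Col4a4/Col4a3 encode collagen IV chains of the kidney's filter, Kirrel2/Nphs1 includes nephrin of the same filter, Duox2/Duoxa2 serve the thyroid, and Klc3/Ckm includes the muscle creatine kinase. Smc1b/Ribc2 includes a cohesin subunit of meiosis. Pecam1/Milr1, with the endothelial marker Pecam1, was bare too. Genes of liver metabolism were among them. Slc27a5/Trim28 includes a bile acid CoA ligase, and Bhmt2/Dmgdh includes an enzyme of choline breakdown. Psma7/Ss18l1, with a proteasome subunit, and Rnf151/Rps2, with a ribosomal protein, had no peak either, at 131 and 10 CpGs. Sgce/Peg10, a pair of imprinted genes, was also among them.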
